A study of Mus musculus with 14 samples.

Results

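The genes described here encode the proteins of the cytosolic ribosome. They were all 88 entries of the count table whose symbol follows the Rpl or Rps pattern, with Rpsa, Rplp0, Rplp1 and Rplp2 added and entries named as pseudogenes (-ps) dropped, out of 46959 gene entries. Large-subunit genes numbered 52 and small-subunit genes 36. The GENCODE M21 annotation lists 84 as protein coding, and lists Rps4l, Rps12l1, Rps3a2 and Rps3a3 as pseudogenes. RNA sequencing covered 14 mouse libraries from Eµ-Myc lymphomas, a model in which the immunoglobulin heavy chain enhancer drives a Myc transgene in the B lineage and malignant B cells arise. One library came from a lymph node lymphoma of a mouse given L-asparaginase (ASNase), which hydrolyses asparagine, and 1 from a lymphoma of a mouse given vehicle (0.9% NaCl). Both lymphomas grew from line 506 in wild-type C57BL/6 hosts, which keep their own stromal and immune cells, and treatment ran from day 7 after injection to the disease endpoint. The other 12 libraries were untreated lines, cultured for 24 h in medium with added L-asparagine, named for the transgenic mice they came from: 115, 136, 309, 504, 505, 506, 517, 524, 549, 649, 688 and 801. The lines and the lymphoma cells grown from line 506 carry the Myc transgene, unlike cells of the wild-type hosts. The labels otherwise give the genotype as wild type. Each line and each treatment had 1 library, so the lines are replicates of a class of lines and the lymphomas have no replicate.

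Each ribosome holds 1 copy of nearly every ribosomal protein, with the acidic stalk proteins as the main exception, so the genes are usually transcribed at high and coordinated rates. Myc is known to drive transcription of ribosomal protein and ribosome assembly genes. Mammalian ribosomal protein mRNAs typically begin with a cytosine followed by a run of pyrimidines, the 5′ terminal oligopyrimidine (TOP) tract, through which mTORC1 controls their translation. Several members also have paralogs or roles outside the ribosome, such as Rpl5 and Rpl11, which bind Mdm2.

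Start sites were available for 64 of the 88 genes in RefSeq windows of 300 bases (build GRCm38.p6, 250 before and 50 after the annotated start). A C followed by at least 6 bases that are each C or T was searched on the sense strand from 5 bases before to 10 bases after the start. It lay in 22 of 76 windows of these genes (28.9%), against 5.40% of all 32851 windows. Tract length and search range were chosen after 9 settings had been looked at. Over those the share ran from 25% to 53.9% in windows of ribosomal protein genes and from 3.37% to 30.7% in all windows, and it was 1.76 to 7.43 times that of all windows. The letters CCGGAAG, searched on both strands of the 300 bases, were found for 26 of the 64 genes (40.6%), against 9.93% of all genes with a window. The sequences below run from 10 bases before the start over 30 bases, 5′ to 3′, with the part of the tract that lies in the searched bases in capitals. In Rpl35, Rpl7a and Rpl22l1 the run of C and T goes on in lower case beyond those bases. Rps6, Rpl28, Rpl35 and Rpl7a show the tract, Rpl22l1, Rps27l, Rpl7l1 and Rps23 are genes the results turn on, and Rps28 and Rpl13 were among the lowest ratios between the lymphomas.
Rps6, chr4:86857348-86857377, minus strand: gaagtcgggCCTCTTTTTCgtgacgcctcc
Rpl28, chr7:4792955-4792984, plus strand: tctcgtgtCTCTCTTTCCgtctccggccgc
Rpl35, chr2:39005112-39005141, minus strand: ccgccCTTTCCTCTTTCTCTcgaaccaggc
Rpl7a, chr2:26910797-26910826, plus strand: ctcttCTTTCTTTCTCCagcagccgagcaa
Rpl22l1, chr3:28805498-28805527, plus strand: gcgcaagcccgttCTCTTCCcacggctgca
Rps27l, chr9:66946076-66946105, plus strand: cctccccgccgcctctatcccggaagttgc
Rpl7l1, chr17:46782637-46782666, minus strand: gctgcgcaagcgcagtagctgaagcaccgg
Rps23, chr13:90923112-90923141, plus strand: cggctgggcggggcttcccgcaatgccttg
Rps28, chr17:33824543-33824572, minus strand: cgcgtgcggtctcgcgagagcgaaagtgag
Rpl13, chr8:123102340-123102369, plus strand: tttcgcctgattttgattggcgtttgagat
Where no capitals appear, the tract as spelled out was not in the searched bases. An annotated start can lie some bases away from the start used in these cells.

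Gene counts totalled 25690935 in the ASNase lymphoma and 27715832 in the vehicle lymphoma, and ran from 24597230 to 32614751 in the lines. The labelled B cell identity was checked on 10 B cell markers, whose levels summed to 3398 CPM in the ASNase lymphoma, 4393 in the vehicle lymphoma and 2366 to 4325 in the lines. CPM are counts of a gene per 1e6 gene counts of its library, after TMM scaling. The lymphomas also held RNA of other cells. In the comparison of lymphomas with lines, 13.4% of all 17450 genes were called higher and 11.1% lower (edgeR adjusted p under 0.05). Fibroblast markers, all 10 of which were higher in the lymphomas (edgeR), summed to 2236 CPM in the ASNase and 871 CPM in the vehicle lymphoma, against 0.033 to 2.07 CPM in the lines, where 3 were at 0 throughout. Macrophage markers, 10 of 11 higher, summed to 763 and 364 CPM in the ASNase and vehicle lymphomas, against 2.84 to 64.6 CPM. T cell markers (5 of 10 higher) summed to 79.2 CPM in the ASNase and 122 CPM in the vehicle lymphoma, against 14.1 to 91.03 CPM in the lines. Endothelium markers (3 of 6 higher) summed to 170 and 246 CPM, against 31.3 to 167 CPM. Erythroid markers (3 higher and 1 lower of 6 tested) summed to 162 and 221 CPM, against 0.285 to 83.9 CPM. Neutrophil markers (7 of 7 higher) summed to 12.5 and 21.9 CPM, against 0 to 0.167 CPM. Markers at or near 0 in every line, such as S100a9, C1qa and Postn, passed the filter on low counts only through the lymphomas. Their calls are therefore no separate support for RNA of other cells, and the summed levels are descriptions. The part these cells play in the values below was not tested. In bulk RNA, fewer cells of a type and less RNA per cell cannot be told apart.

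Ribosomal protein genes took 10.4% of all gene counts in the ASNase lymphoma, 12.6% in the vehicle lymphoma and 7.27% to 10.8% in the lines. The vehicle lymphoma stood above every line, and the ASNase lymphoma stood within the range of the lines. Shares in the lines were 8.67% in 115, 10.6% in 136, 10.6% in 309, 7.78% in 504, 10.2% in 505 and 9.68% in 506. They were 7.27% in 517, 10.8% in 524, 9.45% in 549, 10.2% in 649, 9.87% in 688 and 7.91% in 801. Lines 517, 504 and 801 had the lowest shares. The lymphomas averaged 11.5% and the lines 9.41%, a difference of 2.07 percentage points (exact 2-sided permutation test over 91 splits, p = 0.0769, n = 2 and 12, where the smallest possible p is 0.011). The difference therefore did not pass the threshold of 0.05. Both lymphomas derive from line 506, which is also among the 12 lines, and they differ in treatment. They are therefore not independent replicates.

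**Figure D1:**
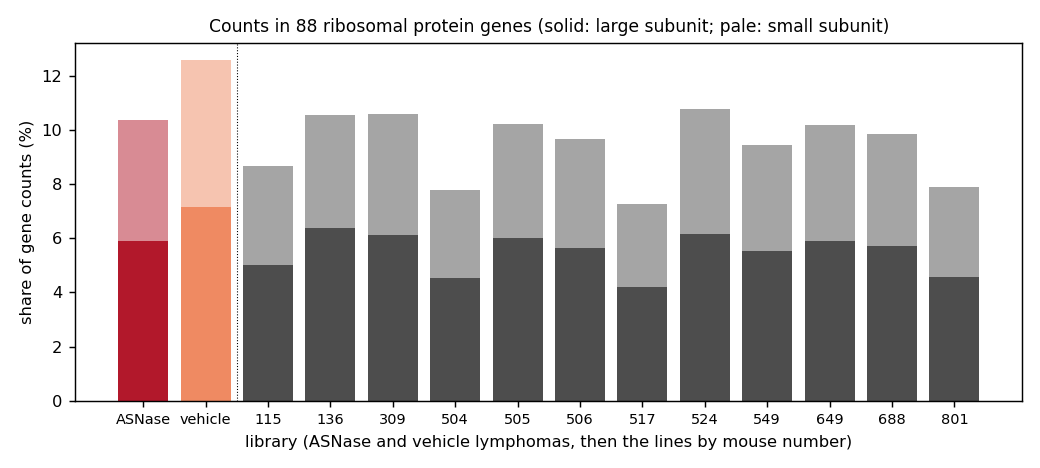
Share of gene counts (y axis, %) in the 88 ribosomal protein genes for each library, with large-subunit genes solid and small-subunit genes pale. The bar of the vehicle lymphoma (12.6%) is above all lines, that of the ASNase lymphoma (10.4%) is within them, and line 517 is lowest at 7.27%.

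By length, the most abundant mRNAs in the lines were Rplp1 and Rplp0, which form the acidic stalk together with Rplp2, and Rps12, Rps3a1 and Rpl4. Rplp1 stood at 3353 ± 817 CPM per kb of exon, Rps12 at 3021 ± 655, Rps3a1 at 2926 ± 692, Rplp0 at 2659 ± 686 and Rpl4 at 2467 ± 539 (SD, n = 12). At the other end stood genes that are paralogs or annotated pseudogenes, and Rpl24. The lowest that passed the filter on low counts were Rps4l at 0.0027 ± 0.0092, Rpl3l at 0.81 ± 0.74, Rps12l1 at 5.28 ± 1.93, Rps3a3 at 42.1 ± 12.6 and Rpl24 at 58.1 ± 9.85 CPM per kb. Exon length is the union of annotated exons, so long annotated forms lower these values.

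Levels in tumours were then compared with levels in culture. Most ribosomal protein mRNAs did not pass the test: 3 of the 86 tested were called by edgeR's quasi-likelihood test (adjusted p under 0.05), or 3.49%, against 24.5% of all 17450 genes. Higher calls made up 13.4% and lower calls 11.1% of all genes. Among ribosomal protein genes Rps4l was called higher and Rpl7l1 and Rps27l were called lower. Rps4l passed the filter on low counts only through the lymphomas, where it is high, so its call is no separate support for an increase. The median log2 fold change was 0.06, against -0.01 over all genes, with 50 genes positive and 36 negative. It was -0.01 for large-subunit and 0.13 for small-subunit genes. Without adjustment 6 of the 86 ribosomal protein genes had p under 0.05 (edgeR). Over all genes that share was at least the 24.5% called, since adjustment never lowers a p. A gene that misses the threshold is not shown to be equal in both groups. All residual spread was that of the lines, and both lymphomas derive from line 506 and are not independent.

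Rps27l, a paralog of Rps27 that is known as a p53 target, stood at 67.4 CPM in the ASNase lymphoma and 69.6 CPM in the vehicle lymphoma. In the lines it ran from 88.4 (line 524) through a median of 137 to 172 CPM (line 115), and line 506 had 154 CPM. Both lymphomas lay below every line. The log2 fold change was -0.96 (SE 0.28, edgeR adjusted p = 0.0238), and the adjusted p was 0.114 without the vehicle lymphoma, 0.133 without the ASNase lymphoma and 0.060 with total counts. Rps27 itself, a small-subunit protein with a zinc finger, had 1071 CPM in the ASNase and 1383 CPM in the vehicle lymphoma, against 522, 852 and 1107 CPM as lowest, median and highest line. The vehicle lymphoma lay above all lines and the ASNase lymphoma did not (log2 fold change 0.54, SE 0.23, edgeR adjusted p = 0.0982). The edgeR adjusted p of Rps27 was 0.0145 with total counts and 0.0478 among genes with a mean of at least 1 CPM, and it was called higher in both. The list of other p53 targets had 1 member higher and 3 lower of 13 tested, where 13.4% of all genes were called higher and 11.1% lower.

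Rpl7l1, a paralog of Rpl7, stood at 83.9 CPM in the ASNase lymphoma and 121 CPM in the vehicle lymphoma. The lines ran from 140 (line 504) through a median of 193 to 237 CPM (line 115). Neither lymphoma overlapped the lines, and the ASNase lymphoma was the lower (log2 fold change -0.96, SE 0.18, edgeR adjusted p = 0.00209). Without the ASNase lymphoma the adjusted p was 0.0825. Rpl7, whose protein lies in the large subunit, had 1709 CPM in the ASNase and 2117 CPM in the vehicle lymphoma, both within the lines (1377 to 3070 CPM). Rps4l, listed as a transcribed pseudogene, had 16 counts in the ASNase lymphoma, 17 in the vehicle lymphoma and 1 over the 12 lines, in line 801. The ratio of counts per scaled library size was 190 (95% exact binomial interval 31.8 to 7720, counting error only). Its call was lost with DESeq2 (adjusted p = 0.272) and without line 801 (edgeR adjusted p = 0.0614). Its partner Rps4x, encoded on the X chromosome, had 2109 and 2684 CPM in the ASNase and vehicle lymphomas, within the lines.

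Both lymphomas lay above all lines for 3 genes (Rps4l, Rpl39 and Rps23) and below all lines for 2, Rpl7l1 and Rps27l. Of these, Rps4l was kept by the filter only through the lymphomas. Over all genes, groups that did not overlap made up 31.5% (19% higher and 12.5% lower). Taken singly, the vehicle lymphoma was above all lines for 23 genes and the ASNase lymphoma for 3, where 24.2% and 24% of all genes did so. Rpl39, a small protein near the exit tunnel, had 663 CPM in the ASNase and 693 CPM in the vehicle lymphoma, against 326 to 599 CPM in the lines (median 515). Its adjusted p was 0.102 (log2 fold change 0.42, SE 0.18, edgeR), so it was not called. It was called higher with total counts (edgeR adjusted p = 0.00867) and among genes with a mean of at least 1 CPM (edgeR adjusted p = 0.0352). Rps2 had 1472 CPM in the ASNase and 1980 CPM in the vehicle lymphoma, against 1720 to 2677 CPM in the lines (log2 fold change -0.46, SE 0.17, edgeR adjusted p = 0.064). DESeq2 called it lower (adjusted p = 0.0483).

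Rpl5, Rpl11 and Rps19 lay within the range of the lines in both lymphomas. Rpl5 had 1799 and 1911 CPM in the ASNase and vehicle lymphomas, against 1931 ± 427 CPM in the lines (SD, n = 12). Rpl11 had 886 and 1085 CPM, against 1025 ± 144 CPM. Rps19, mutated in Diamond-Blackfan anaemia in humans, had 1049 and 1352 CPM, against 1015 ± 203 CPM. For these 3 the edgeR adjusted p was 0.889, 0.820 and 0.460. Rplp0 had 3800 and 4727 CPM against 4411 ± 1137 CPM, Rplp1 1505 and 2020 CPM against 1660 ± 404 CPM, Rplp2 784 and 1156 CPM against 961 ± 174 CPM, and Rpsa, a small-subunit protein also known as a laminin receptor, 2758 and 3588 CPM against 2859 ± 578 CPM. None of these stalk and surface genes was called.

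The scaling of the libraries moved this picture. With total counts the median over all genes was 0.21 and that of ribosomal protein genes 0.29 (log2), and 14 were called higher and 1 lower. With a trend on gene length removed the medians were -0.30 and -0.22, and 1 was called higher and 9 lower. Relative to the median of all genes, the ribosomal protein genes differed by less than 0.1 in both of these settings. Of all 17450 genes, 3884 were called with total counts and 5617 with the length trend removed, against 4270 in the main fit. Tested among genes with a mean of at least 1 CPM, the ribosomal protein genes had a median of 0.19, against -0.02 for all such genes. Of them 2 were called higher and 2 lower, and 2523 of all such genes were called.

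Lists of related genes were read in the same fit, in which 13.4% of all genes were called higher and 11.1% lower. Of 39 ribosome biogenesis genes 24 were called lower and 0 higher (median log2 fold change -0.76). Bysl, a small-subunit assembly factor, stood at 43.2 and 52.1 CPM in the ASNase and vehicle lymphomas, against 98.6 ± 7.79 CPM in the lines (SD, n = 12, edgeR adjusted p = 5.0e-05). Of 80 tested entries named as mitochondrial ribosomal proteins 26 were called lower and 0 higher (median -0.68), and 4 of the 80 are pseudogene entries, which were not called. Mrpl18 stood at 48.5 and 57.8 CPM, against 106 ± 10.8 CPM in the lines (edgeR adjusted p = 0.000234). Of 17 other mRNAs known for a TOP tract, 2 were called lower, Eef1d and Npm1, and 0 higher (median -0.19), a share of lower calls close to that of all genes. In the list of mTORC1 and cap-binding genes 4 of 14 were called lower and 0 higher, with Eif4e, the cap-binding protein, at 111 and 102 CPM in the ASNase and vehicle lymphomas, against 317 ± 71.7 CPM. Differences between lists were not tested.

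**Figure D2:**
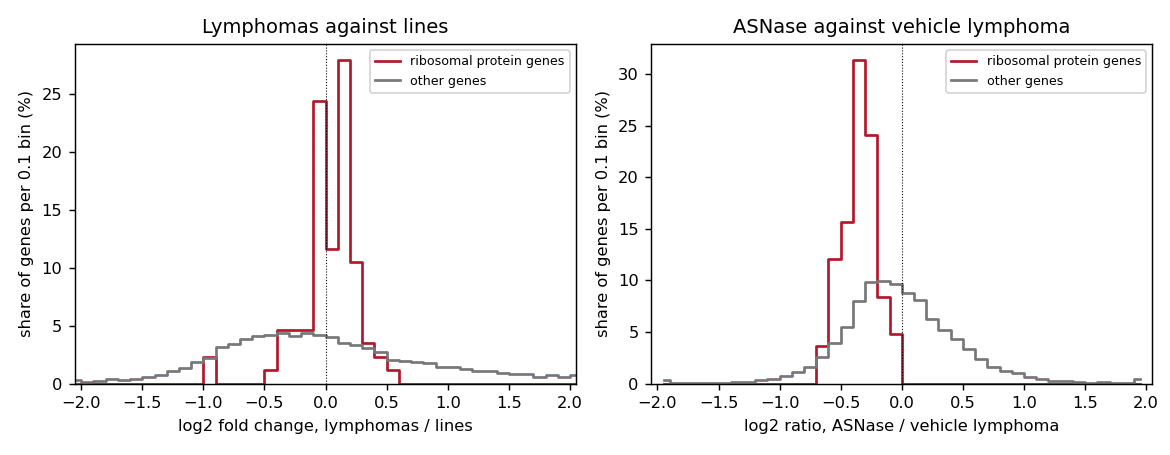
Share of genes per bin of 0.1 (y axis, %) by log2 fold change of the lymphomas over the lines (left) and by log2 ratio of the ASNase over the vehicle lymphoma (right), for ribosomal protein genes (red) and other genes (grey). The left axis ends at 2, which leaves out Rps4l. Ribosomal protein genes lie around 0.06 on the left and around -0.36 on the right, where no bin above 0 holds one.

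Between the treatments each side had 1 library, so there is no test. All 83 ribosomal protein genes with at least 5 CPM in either lymphoma were lower in the ASNase than in the vehicle lymphoma. The median log2 ratio was -0.36, with an interquartile range of -0.43 to -0.27, whereas the median over 10561 genes was -0.05 and 55.3% of them were negative. The genes also varied together across the lines, so 83 genes are not 83 separate observations. Counting intervals lay below a ratio of 1 for 82 of the 83 genes, and the share over all genes was not computed. The intervals cover counting error only and say nothing of the spread between mice. No gene reached a log2 ratio of 1 in either direction, which 4.69% of all genes did. At -0.5 or lower stood 13, against 12% of all genes. The median was -0.34 with DESeq2 size factors, -0.30 with total counts and -0.26 with the length trend removed. Rps27l was above 0 with total counts, and Rpl39 and Rps27l were above 0 with the length trend removed. At a floor of 1 CPM 85 genes entered, of which Rpl3l was above 0 (log2 ratio 0.54). Marker sums for fibroblasts and macrophages were higher in the ASNase lymphoma, and those for B cells, T cells, endothelium, erythroid cells and neutrophils were lower. Their part in the ratio was not tested.

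The lowest ratios belonged to Rpl24, Rps28, Rps26 and Rpl13, of which Rpl24 and Rpl13 are large-subunit and Rps28 and Rps26 small-subunit proteins. Rpl24 had 44.8 CPM in the ASNase and 72.3 CPM in the vehicle lymphoma, a ratio of 0.619 (95% exact binomial interval 0.578 to 0.663). Rps28 had 417 and 655 CPM (ratio 0.637), Rps26 569 and 891 CPM (ratio 0.639) and Rpl13 1055 and 1598 CPM (ratio 0.660). In the lines Rps28 averaged 519 ± 76.5 CPM and Rpl13 1332 ± 232 CPM (SD, n = 12). Nearest to 1 were Rps27l at 0.969 (0.911 to 1.03), Rpl39 at 0.957 (0.938 to 0.975), Rps15a at 0.952 (0.938 to 0.968) and Rpl5 at 0.941 (0.930 to 0.952). Genes with a TOP tract had a median log2 ratio of -0.36 (22 genes), and those with a window but no tract -0.35 (39 genes).

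Both lymphomas could be set against line 506, from which they grew. The ASNase lymphoma had a median log2 ratio of -0.26 over 83 genes, with 13 positive and 70 negative, and the vehicle lymphoma 0.10, with 54 positive and 29 negative. Over all genes of at least 5 CPM the medians were -0.17 for the ASNase and -0.14 for the vehicle lymphoma, with 58.0% and 56.8% negative. Log2 ratios of at least 1 either way were found for 3 genes (Rps27l, Rpl7l1 and Rpl22l1, all lower) in the ASNase and 1 gene (Rps27l, lower) in the vehicle lymphoma, against 28.5% and 29.7% of all genes. Rps27l was at 0.436 times the level of line 506 in the ASNase and 0.450 times in the vehicle lymphoma. Rpl22l1 was at 0.453 and 0.592 times. Line 506 itself stood 0.67 above the median line for Rpl22l1 (log2 CPM). With the length trend removed the median for the vehicle lymphoma was -0.25, and with total counts that for the ASNase lymphoma was 0.08. The direction of the medians against line 506 therefore depended on the scaling. These comparisons share line 506 or a lymphoma.

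Among the lines the ribosomal protein genes moved together, with some genes apart. Of 3321 pairs of genes with a mean log2 CPM of at least 5, 97.9% had a positive Pearson r across the 12 lines, with a median of 0.75, against 0.01 over pairs of all such genes. These values are descriptions, since scaling and depth are shared by all genes of a library. Each gene was also set against the mean of the others. Rpl23 came highest with r = 0.99, and 59 genes were above 0.8. Below 0.5 stood 5 genes: Rpl7l1 at -0.10, Rps27l at 0.23, Rps7 at 0.46, Rpl36al at 0.47 and Rps3a2 at 0.50 (0.498 before rounding). The SD of log2 CPM over the lines had a median of 0.26 over 82 genes, against 0.29 over 5525 genes at that level. Among genes of mean log2 CPM of at least 8 the medians were 0.26 for 76 ribosomal protein genes and 0.27 for 592 others.

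Setting each line against the other 11 called 0 of 1020 gene and line pairs (edgeR adjusted p under 0.05), against 0.7% of all pairs. At unadjusted p under 0.05 stood 70 pairs (6.86%), against 5.55% of all pairs, and 39 of the 70 were decreases in line 517, where the median log2 fold change was -0.52. DESeq2 called 11 pairs, all lower: Rps3a1, Rpl34 and Rps3a2 in line 504, Rpl39, Rpl36a, Rps13, Rps15a, Rplp2 and Rps12 in line 517, Rpl3l in line 524 and Rps23 in line 801. It called 2.01% of all pairs.

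Rpl22l1, a paralog of Rpl22 whose level is known to rise when Rpl22 is lost, varied most, with an SD of 1.10 on the log2 scale. It ran from 25.2 CPM in line 801 through a median of 133 to 230 CPM in line 688. Lines 115 and 517, at 34.1 and 34.0 CPM, were also low. Rpl22 itself ran only from 374 to 612 CPM (SD 0.19), and across the lines the 2 genes had r = 0.45 and rho = 0.48 (100000 permutations, adjusted p = 0.244 and 0.259 over 5 relations). Without the 2 lines farthest from the median of Rpl22, r was 0.56. The sign was positive in all of these values, and none passed the threshold.

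Rps6, the small-subunit protein phosphorylated by S6 kinases, had the next largest SD (0.50). It stood at 542 CPM in line 115, at 1273 CPM in the median line and at 2195 CPM in line 136, and at 1194 and 1562 CPM in the ASNase and vehicle lymphomas. Line 115 was lower than all other libraries and line 136 higher. Rps6 lies on chr4:86854660-86857412. Of 14 other genes within 5 Mb that reached 10 CPM, 12 were lower in line 115 than in the other lines and 9 were below every other line (median log2 fold change -1.12). In line 136 all 15 such genes were higher, 9 above every other line (median 0.87). Haus6, for example, stood at 59.3 CPM in line 115 and 167 CPM in line 136.

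Rps23, a small-subunit protein of the decoding centre, stood at 353 CPM in line 801, at 868 CPM in the median line and at 1000.1 CPM in line 688. No other line was below 612 CPM (log2 fold change of line 801 over the others -1.26, SE 0.23, edgeR adjusted p = 0.0756; DESeq2 adjusted p = 1.33e-06). It lies on chr13:90923131-90924942. Of 19 other genes within 5 Mb, 18 were lower in line 801 and 10 were below all other lines (median -0.91). Over chromosome 13 as a whole the median of other genes in line 801 was -0.87 relative to the median line.

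**Figure D3:**
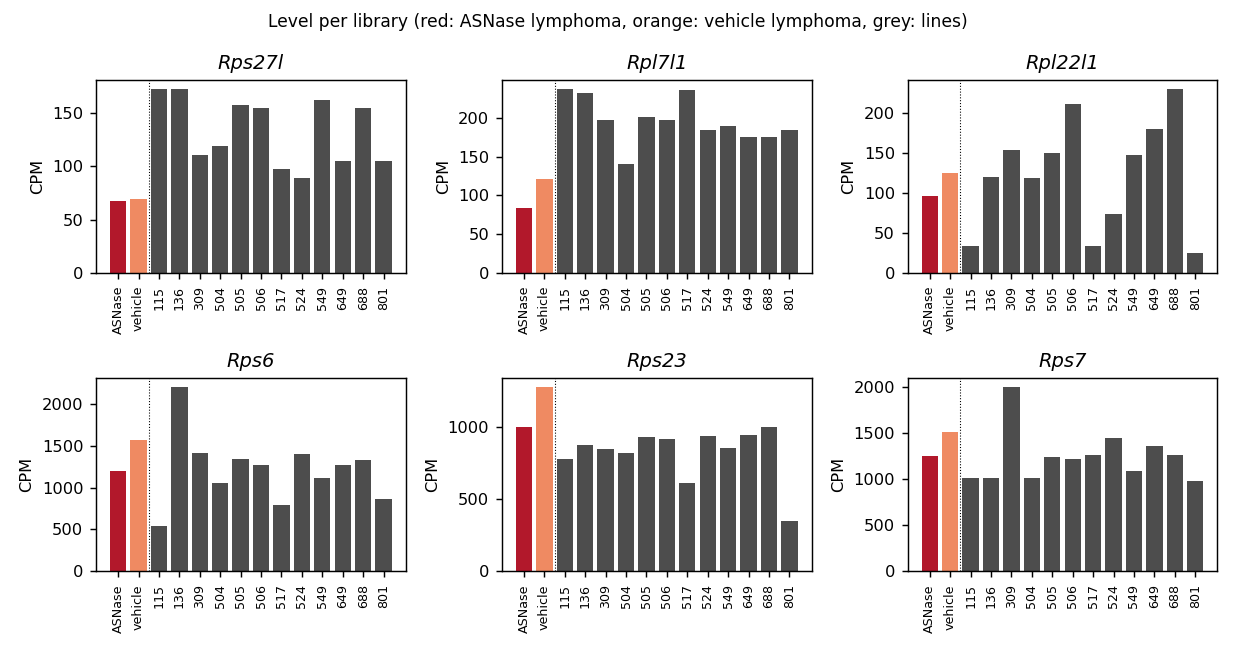
Level (y axis, CPM) of 6 ribosomal protein genes in each library, with the ASNase and vehicle lymphomas at the left and the lines by mouse number. Rps27l and Rpl7l1 are lowest in the lymphomas, Rpl22l1 is low in lines 115, 517 and 801, Rps6 differs between lines 115 and 136, Rps23 is low in line 801 and Rps7 is high in line 309.

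**Figure D4:**
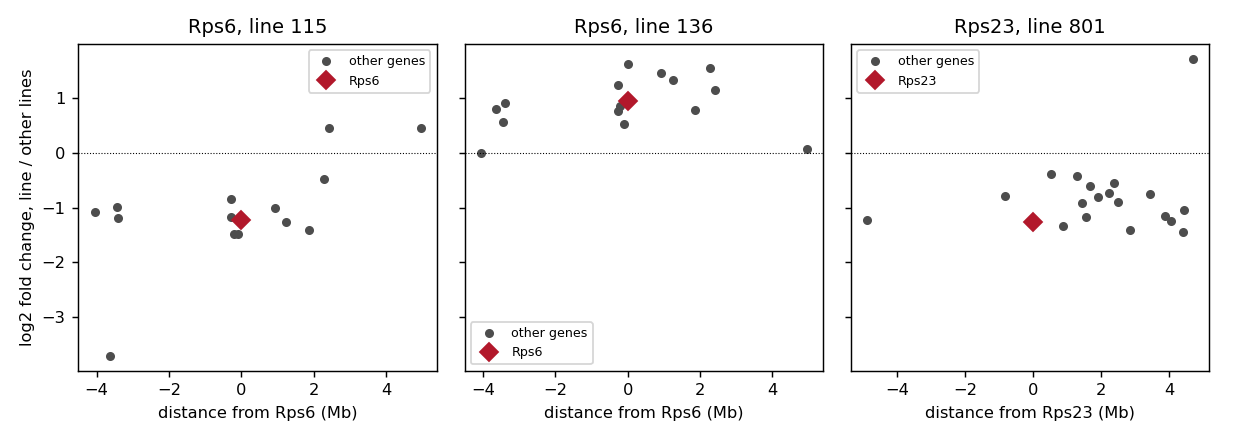
Log2 fold change of 1 line over the other lines (y axis) against distance from the gene (x axis, Mb) for genes of at least 10 CPM around Rps6 in lines 115 and 136 and around Rps23 in line 801. Diamonds mark Rps6 and Rps23, and most neighbours lie on the same side of 0.

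Several other departures from the common level followed the position of the gene. Deviations are differences in log2 CPM from the median line. In line 649 other genes of chromosome 1 had a median deviation of 0.51, and Rpl7, Rpl31 and Rpl37a, all on that chromosome, had a median of 0.67. In line 309 chromosomes 6 and 12 stood at 0.49 and 0.45, and Rpl32 on chromosome 6 was at 0.77 and Rps7 and Rps29 on chromosome 12 at 0.71 each. Rps7 had 1993 CPM in line 309 and 973 to 1446 CPM in the other lines. Not every shift was shared in this way. Chromosome 3 of line 309 stood at -0.43, while its 4 ribosomal protein genes had a median of -0.05. The median of all ribosomal protein genes in line 309 was 0.11. In line 504 chromosome 3 stood at -0.50 and its 4 ribosomal protein genes at -0.71, while chromosome 18 stood at 0.52 and Rpl17 and Rps14 there at 0.26, in a line whose ribosomal protein genes had a median of -0.30.

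Over all 984 pairs of gene and line, the deviation less the median of all ribosomal protein genes in that line had r = 0.37 with the median of other genes on the chromosome and r = 0.49 with that of genes within 5 Mb (972 pairs), as descriptions of pairs that share lines and neighbours. Of 24 pairs beyond 0.5 with such a local value, 22 had the same sign as it and 19 also reached 0.25 locally, a size that 5.45% of all pairs reached. Rpl22l1 had the local sign in lines 801 and 517. There its deviations were -2.36 and -1.95, against local medians of only -0.27 and -0.47. In lines 115 and 524, with local medians of 0.22 and 0.07 and deviations of -1.95 and -0.84, Rpl22l1 did not have that sign. Nor did the deviation of -0.61 of Rps27l in line 524 come with a local shift of comparable size (-0.02). Ranges, thresholds and the neighbourhoods shown were chosen after the values were seen. DNA was not measured, and no cause of these shifts was tested.

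**Figure D5:**
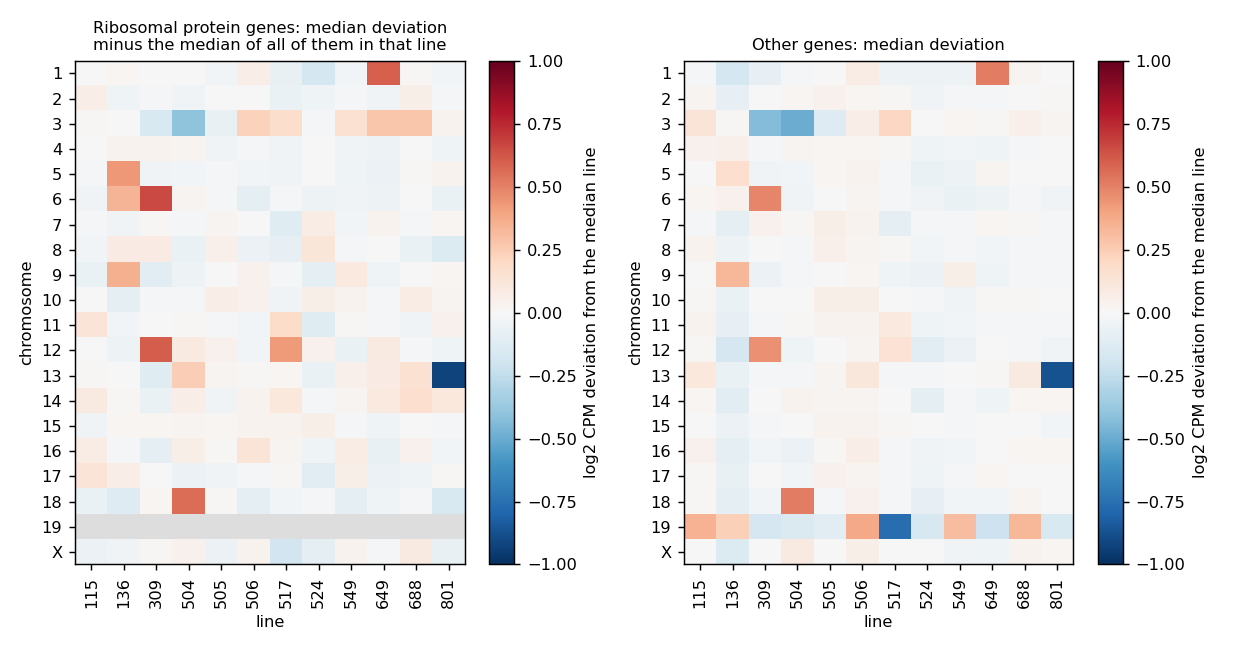
Median deviation from the median line (colour, log2 CPM) by chromosome (rows) and line (columns), for ribosomal protein genes relative to all of them in that line (left) and for other genes (right). Chromosome 1 in line 649, 6 and 12 in line 309, 18 in line 504 and 13 in line 801 stand out in both panels, and grey marks a chromosome with no such gene.

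Pseudogene copies can share reads with these genes. Of 271 entries named as ribosomal protein pseudogenes, 72 reached 5 CPM, and their level had a median r of 0.93 with that of the parent gene across the lines. Rps6-ps4, on chromosome 2, averaged 484 ± 164 CPM (SD, n = 12), or 39.8% of Rps6, with r = 0.999. It was at 218 CPM in line 115 and 874 CPM in line 136, and so followed Rps6 and not its own chromosome. Adding the entries to their parent genes left the calls between lymphomas and lines at 1 higher and 2 lower.

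Across the lines the share of counts in ribosomal protein genes rose with the mean level of the other TOP mRNAs (r = 0.87, permutation p = 0.00086, adjusted p = 0.0043; rho = 0.69, adjusted p = 0.0846, n = 12). The rank correlation did not pass after adjustment, and without lines 517 and 801 r was 0.72. With the level of Myc the share had r = 0.46 (permutation test, adjusted p = 0.244), which was -0.22 without lines 504 and 517 and so rests on those lines. With the ribosome biogenesis list r was 0.24 (permutation test, adjusted p = 0.473). Rps27l and the p53 target list had r = -0.33 (permutation test, adjusted p = 0.373).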

How the data were processed

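RNA of 14 libraries was prepared with a stranded mRNA kit and sequenced as paired ends of 75 bases, per the labels' protocols. The deposited table holds raw counts. Per the submitters' processing notes, the authors used STAR 2.4.0, featureCounts and Subread 1.5.0-p3, with genome build GRCm38 (mm10). Strand setting and handling of multiply matching reads: not given in the sources used here. Overlapping genes and near-identical copies are therefore uncertain, as many ribosomal protein genes have pseudogene copies. The 100 control entries, which name no gene, were left out (5 to 534 counts per library). Column names match the sample titles.

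Counts were analysed in R 4.3.3 with edgeR 4.0.16 (filterByExpr, TMM, quasi-likelihood test over all genes kept, Benjamini-Hochberg adjustment, threshold 0.05), limma 3.58.1 and DESeq2 1.42.0 as an alternative, and plotted with matplotlib 3.10.9. Lymphomas were set against lines on 17450 genes. Each line was set against the other 11 on 15648 genes. That filter keeps genes present in 1 line and replaced, after its result was seen, one over all 12 lines as 1 group (10698 genes). Both called 0 ribosomal protein genes. Single libraries were compared by ratio with exact 95% binomial intervals, which cover counting error only. Log2 CPM used a prior count of 2. Both edgeR comparisons were tested on simulated counts, with ribosomal protein genes changed by a log2 size of 0.5, 1 or 2. For lymphomas against lines 0, 6 and 19 of 20 such genes were recovered at these sizes. For 1 line against the others 0, 3 and 15 of 20 were recovered. Unchanged genes called numbered 0 in the first and 6 in the second simulation. Each simulation changed only 200 of 17450 genes, whereas the data gave 4270 calls between lymphomas and lines. Adjustment for that comparison was therefore stricter in the simulation, and its recovery does not give the power in the data. A first simulation was replaced by one that reports ribosomal protein genes apart. Coordinates are those of the deposited table, and 63 of 88 members have the same span in GENCODE M21. Sequences and their coordinates are from RefSeq (GRCm38.p6).

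The members, lists, tests and named genes were chosen with earlier results of these data known. The naming rule took paralogs with their partners, stalk and surface proteins, Rpl5, Rpl11, Rps6 and Rps19, and the largest changes, SDs, ratios and levels. Other genes were named after their values were seen. A result that needs an item withheld for evaluation is not reported here.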

Additional observations from a re-analysis of the deposited data

Results flagged for a closer look

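The 100 control entries outside the gene table, which no comparison used, held more than the 3 counts that a count of 0 allows in every library, with the most (534) in line 136.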

How the results depend on the processing

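Lymphomas against lines gave 3 calls. There were 15 with total counts, 10 with the length trend removed, and 1 to 4 when single libraries were left out (1 without the ASNase lymphoma). Over all genes the calls numbered 4270, with 3884 for total counts and 5617 for the length trend removed. The median log2 fold change of ribosomal protein genes, 0.06, was 0.29 with total counts and -0.22 with the length trend removed. Genes that were not called changed sign. With total counts Rpl22l1 was at 0.075, Rplp0 at 0.17, Rpl5 at 0.17 and Rpl11 at 0.16. With the length trend removed Rpl22 was at -0.20, Rpsa at -0.21, Rps6 at -0.13 and Rps19 at -0.070. At a mean of at least 1 CPM Rplp0 was at 0.083, Rpl5 at 0.083 and Rpl11 at 0.078. Leaving out single libraries gave ranges of -0.358 to 0.0218 for Rpl22l1, -0.213 to 0.0958 for Rplp0, -0.0994 to 0.00661 for Rpl5, -0.208 to 0.0798 for Rpl11, -0.0494 to 0.325 for Rpsa and -0.0223 to 0.358 for Rps6. The share of counts kept its direction and did not pass the threshold in any setting run. With either lymphoma left out, the permutation test has too few splits to pass 0.05. Those settings therefore say nothing about the threshold.

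The median ASNase over vehicle log2 ratio of -0.36 was -0.34 with DESeq2 size factors, -0.30 with total counts and -0.26 with the length trend removed, and 13 genes passed a log2 ratio of 0.5. The vehicle lymphoma over line 506 (0.10) was at 0.16 with DESeq2 size factors, 0.39 with total counts, 0.10 with TMM from other genes, -0.25 with the length trend removed and 0.11 with pseudogene entries added. It had 0 genes past the size rule with total counts, 3 with the length trend removed and 3 at 0.5. The ASNase lymphoma over line 506 (-0.26) was at -0.19, 0.084, -0.26, -0.51 and -0.26 in the same order, with 0 genes for total counts and 13 at 0.5. Each line against the others gave 0 calls, 2 with total counts and 11 with DESeq2. The relation of the share to Myc was -0.22 without the 2 farthest lines. The cause of these changes was not tested.

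The alternative that leaves out each other line for the line with most calls was not run, since no line had a call. No paired analysis was possible because the groups share fewer than 2 replicate numbers. Each lymphoma has 1 library, so no spread between mice is known.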
